A study of Drosophila melanogaster with 46 samples.

Results

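The 72 genes described here are those of the fold change tables whose symbols begin with mRpL or mRpS, the protein genes of the mitochondrial ribosome of Drosophila melanogaster, out of 12884 genes in either table. There were 46 genes of the large subunit (mRpL) and 26 of the small subunit (mRpS), and all 72 stood in both tables with an adjusted p-value. Discs of the eye, the epithelial primordia of the adult eye in the larva, were dissected from wandering third-instar larvae (labelled L3), and polyadenylated RNA was sequenced. The RNA groups were discs labelled Mutant_PcXT109_FRT2A (strain PCxt109 mutant, 2 replicates), discs with RNA interference against ph (BL 64095 x VDRC50028, 4 replicates) and discs with RNA interference against white (BL 64095 x BL33623, 4 replicates), with about 150 discs a replicate. The RNA interference groups share the parent stock BL 64095, and the labels give neither the driver it carries nor the control of the Pc mutant. Binding of PSC and of Su(z)12 was measured by ChIP-seq in discs of strain W1118 Oregon-R, with 2 replicates each and about 500 discs a replicate.

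Mitochondrial ribosomal proteins are encoded in the nucleus, made in the cytoplasm and imported into mitochondria. There they join ribosomal RNA of the mitochondrial genome and translate the few core subunits of the respiratory chain and of ATP synthase that this genome encodes. Some have counterparts in bacterial ribosomes and others arose with the mitochondrion. Pc, ph and PSC belong to Polycomb repressive complex 1 (PRC1), which compacts chromatin, while Su(z)12 belongs to the second complex (PRC2), a methyltransferase for histone H3. Both complexes are known for the silencing of developmental regulator genes rather than for the control of widely expressed genes.

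The fold change tables give comparisons and not samples, so every expression value here is the authors' log2 fold change with its standard error (SE), and the depth of each library is unknown. A gene was called higher or lower at the authors' DESeq2 adjusted p under 0.05. Whether the replicates were separate sets of animals is not stated in the labels, and these p-values may then measure technical spread. The targeted genes were lower: the value of Pc was -1.64 ± 0.41 in the Pc mutant, and the ph paralogs ph-p and ph-d fell by 0.80 ± 0.04 and 0.66 ± 0.05 under ph interference, in the authors' deposited tables. All 6 eye disc markers (ey, so, eya, dac, elav and sca) were called lower in both of the authors' deposited tables, between -1.03 and -0.66 in the Pc mutant and between -5.33 and -1.06 under ph interference. Of the markers of other tissues, muscle (Mhc, Mlc2) and fat body (Lsp1gamma, apolpp) were lower in the Pc mutant and not called under ph interference. Haemocyte markers (Hml, Pxn) were lower under ph interference and not called in the Pc mutant. In the Pc mutant Mhc was at -2.06 ± 0.49 and apolpp at -1.96 ± 0.51 in the authors' deposited table. The mean count of Mhc was 37754 in the Pc comparison and 500 in the ph comparison, and that of apolpp was 9947 and 118. The part of RNA of other tissues in either comparison was not tested.

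Under ph interference nearly the whole set rose by a small and similar amount. By the authors' deposited table, 71 of 72 members were called higher and 0 lower, against 31.1% of all genes higher and 34.9% lower, and all 72 fold changes were positive; 9 of them were negative once fold changes were centred on the cytoplasmic ribosomal protein genes. The median log2 fold change of the members was 0.51 (1.42-fold), against -0.06 over all 11009 genes tested and 0.04 over the 4942 genes within the members' range of mean count. Of those 4942 genes 41.7% were called higher and 36.7% lower. The middle 50% of members lay between 0.43 and 0.60, a width of 0.17, against a width of 1.42 over all genes. The width was 0.86 over the genes within the members' range of mean count and 0.09 over the cytoplasmic ribosomal protein genes. By size, 3 members were under 0.3, 31 between 0.3 and 0.5, 27 between 0.5 and 0.7, and 11 at 0.7 or more. In bulk discs a change in the RNA of each cell and a change in the makeup of the tissue cannot be told apart, and the part of the fallen eye disc markers in this rise was not tested.

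**Figure D1:**
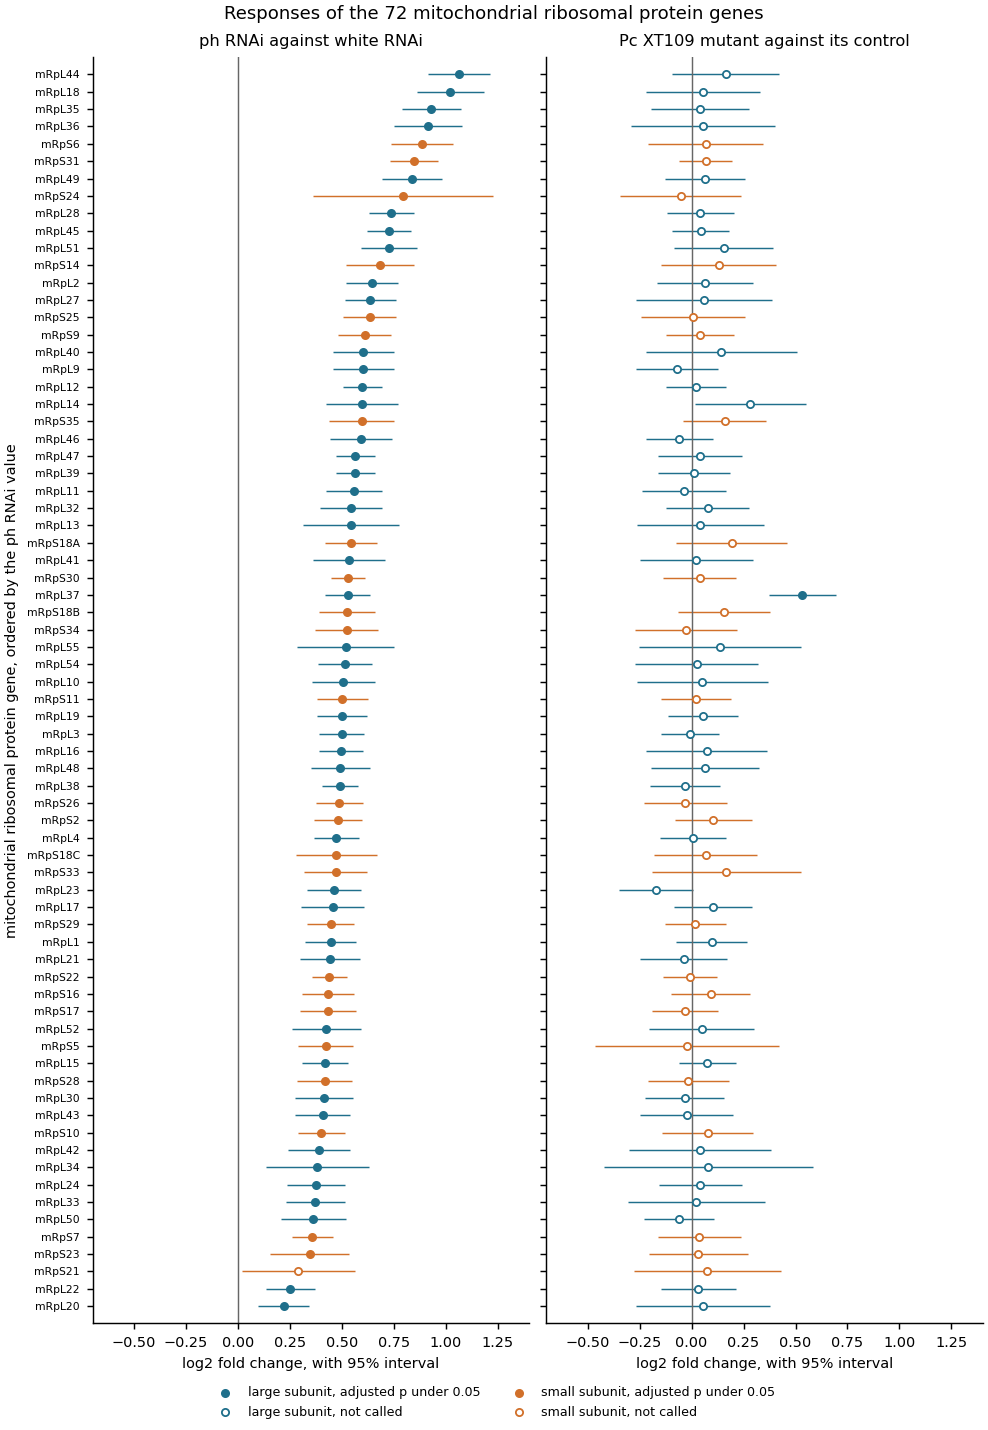
Log2 fold change of each of the 72 members (x axis, with its 95% interval) under ph interference and in the Pc mutant, ordered by the ph value; filled points passed the adjusted p threshold of 0.05. On this scale all 72 ph values lie between 0.22 and 1.06, while 71 of 72 Pc values are not called and mRpL37 stands apart at 0.53; centred on the cytoplasmic ribosomal protein genes, 9 of the ph values fall below 0.

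Large subunit proteins gave the largest responses. The mRpL44 gene, whose mammalian protein carries a fold of the RNase III family, rose by 1.06 ± 0.08 (2.09-fold, DESeq2 adjusted p = 2.9e-43) in the authors' deposited table. Next was mRpL18, a counterpart of a bacterial protein that binds ribosomal RNA, at 1.02 ± 0.08 (adjusted p = 1.86e-34, DESeq2) in the authors' deposited table. The members mRpL35 (0.93 ± 0.07) and mRpL36 (0.91 ± 0.08), both with bacterial counterparts, followed in the authors' deposited table. These 4 genes had intervals that lay wholly above the median of the set. So did other members, among them the small subunit genes mRpS6 and mRpS31. Of the 4 large subunit genes, mRpL44, mRpL18 and mRpL35 overlap another annotated gene. Because no source used here gives the strand setting of the counting, reads of the overlapping gene cannot be told apart.

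Further large subunit members rose clearly with intermediate sizes. The mRpL49 gene rose by 0.84 ± 0.07, mRpL28 by 0.74 ± 0.05 and mRpL45, whose mammalian protein contacts the inner membrane, by 0.73 ± 0.05 in the authors' deposited table (DESeq2 adjusted p = 7.25e-29, 1.63e-40 and 2.11e-41). The stalk protein gene mRpL12, whose bacterial counterpart recruits translation factors, rose by 0.60 ± 0.05 (DESeq2 adjusted p = 1.08e-34) in the authors' deposited table. The values of mRpL47 (0.57 ± 0.05) and mRpL39 (0.56 ± 0.05) in the authors' deposited table were also close to the median, with small errors. In the large subunit 46 of 46 genes were called higher, with a median of 0.52.

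The small subunit moved by nearly the same amount, with 25 of 26 genes called higher and a median of 0.48. Its largest values were those of mRpS6 at 0.89 ± 0.08 and mRpS31 at 0.85 ± 0.06 in the authors' deposited table, and mRpS31 had the smallest adjusted p of the set (DESeq2, 1.0e-46). The value of mRpS24 was 0.79 ± 0.22 in the authors' deposited table, but its mean count of 88 was the lowest of the members, and it overlaps TBC1d7. The most abundant member by mean count, mRpS30, rose by 0.53 ± 0.04 in the authors' deposited table; in mammals its protein, like those related to mRpS18A, sits in the large subunit. The only member not called was mRpS21, at 0.29 ± 0.14 (DESeq2 adjusted p = 0.0544) in the authors' deposited table, with a mean count of 177.

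The smallest called responses were those of the large subunit genes mRpL20 and mRpL22. In bacteria the first takes part in the assembly of the subunit and the second lines the exit tunnel. The value of mRpL20 was 0.22 ± 0.06 (1.16-fold, DESeq2 adjusted p = 7.56e-04) and that of mRpL22 was 0.25 ± 0.06 (adjusted p = 6.18e-05) in the authors' deposited table. Both were called lower, at -0.17 and -0.14, when fold changes were centred on the cytoplasmic ribosomal protein genes.

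Groups of members by descent and by chromosome had close medians, and no difference between them was tested. The 42 members numbered within the bacterial series (large subunit up to 36, small subunit up to 21) had a median of 0.50, and the 30 numbered beyond it had a median of 0.52. The 11 members on the X had a median of 0.50 and the 61 on autosomes 0.51. The 30 members that overlap no other annotated gene were all called higher, with a median of 0.52, so the rise was also measured where no annotated gene overlaps.

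The cytoplasmic ribosome gives a scale for the rise. Of 88 genes with RpL or RpS symbols, nearly all of them cytoplasmic ribosomal proteins, 83 were called higher and 3 lower, with a median of 0.39 in the authors' deposited table for ph interference. When fold changes were centred on that median (a shift of 0.39), 28 members were called higher and 2 lower, with a median of 0.12, while 13.1% of all genes were higher and 56.0% lower. The members' median thus stood above that of the RpL and RpS genes, and whether the sets differ was not tested.

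**Figure D2:**
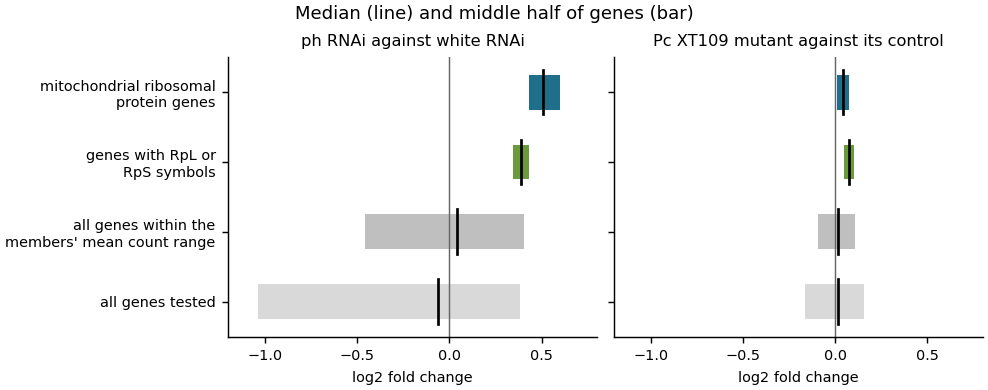
Median (black line) and middle 50% (bar) of the log2 fold change for the 72 members, the 88 genes with RpL or RpS symbols, all genes within the members' range of mean count and all genes tested. Under ph interference the members' bar runs from 0.43 to 0.60 where that of all genes runs from -1.04 to 0.38, and after centring on the RpL and RpS median the members' median is 0.12; in the Pc mutant all 4 medians lie between 0.01 and 0.08.

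In the Pc mutant the set stayed near 0. By the authors' deposited table, 1 of 72 members was called higher and 0 lower, against 3.64% and 6.24% of all genes, and the median was 0.04, against 0.02 over all 11297 genes tested. Before any centring 55 members had a positive fold change, and centred on the RpL and RpS median the members' median was -0.03. The standard errors ran from 0.06 to 0.26, and for 67 of 72 members the 95% interval ended below 0.505, the median under ph interference. At an unadjusted DESeq2 p under 0.05 there were 2 members, mRpL37 and mRpL14. The value of mRpL14, a protein of the subunit interface in bacteria, was 0.28 ± 0.14 (DESeq2 adjusted p = 0.224) in the authors' deposited table. Next was mRpS18A at 0.19 ± 0.14, and the lowest values were those of mRpL23 (-0.17 ± 0.09, DESeq2 adjusted p = 0.288), mRpL9 (-0.07 ± 0.10) and mRpL50 (-0.06 ± 0.09) in the authors' deposited table.

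The exception was mRpL37 (3R, 10782563 to 10784092, dm6), a large subunit gene with no bacterial counterpart. It rose by 0.53 ± 0.08 (1.45-fold, DESeq2 adjusted p = 1.44e-08) in the Pc mutant and by 0.53 ± 0.05 (1.44-fold, adjusted p = 3.49e-21) under ph interference, in the authors' deposited tables. Its neighbours were then looked up, a step chosen after its value was seen. With genes under a mean count of 100 left out, mRpL37 lies in a stretch of 136 kb on 3R, from MED7 to CG6621, in which 16 of 23 genes were called higher in the Pc mutant and 0 lower. The called genes of this stretch had log2 fold changes between 0.38 and 0.72, and the median of all 23 was 0.48 in the authors' deposited table. They include the Mediator subunit gene MED7 (0.46 ± 0.07), the condensin subunit gene Cap-H2 (0.72 ± 0.14), the replication helicase gene Mcm5 (0.66 ± 0.11) and the formaldehyde dehydrogenase gene Fdh (0.65 ± 0.07) in the authors' deposited table. Both end genes of the stretch, MED7 and CG6621, were themselves called, so its ends depend on the calls. The 5 genes looked up outside it, within 150 kb, all lie on the side of MED7, and none beyond CG6621 was covered. None of these 5 was called in the Pc mutant. Closest to the threshold was pug, at -0.34 ± 0.12 (DESeq2 adjusted p = 0.0506) in the authors' deposited table.

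The stretch did not move as one under ph interference, where 10 of its 22 genes were called higher and 8 lower, with a median of 0.02. In windows of 21 genes along the arms, the window centred on mRpL37 had a median of 0.38 in the Pc mutant, which ranked 13 of 7035 windows, and the highest window had 0.50. The windows of the other 71 members lay between -0.23 and 0.09. In the Pc mutant mRpL37 was thus among the 16 of 23 genes of its stretch of 3R that were called higher. Whether mRpL37 would also respond apart from its stretch cannot be told from these values, and the cause was not tested.

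**Figure D3:**
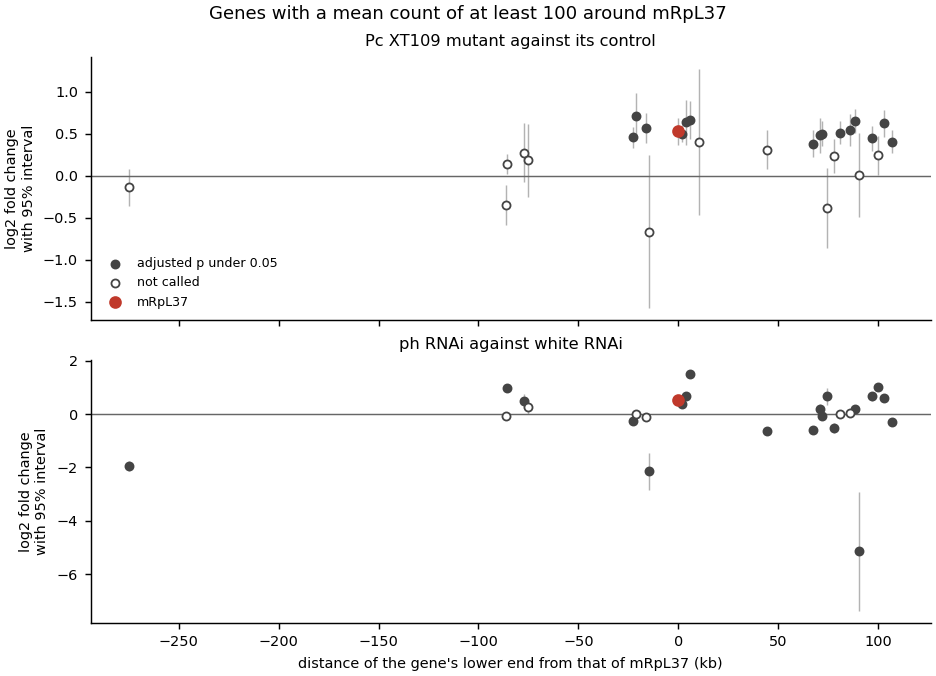
Log2 fold change with 95% interval of the genes around mRpL37 (mean count 100 or more), by distance of each gene's lower end from that of mRpL37 in kb, in the Pc mutant (upper) and under ph interference (lower). In the Pc mutant 16 of the 23 genes from MED7 to CG6621 are called higher, between 0.38 and 0.72. The 5 genes outside, all on the side of MED7, are not called. Under ph interference the stretch holds 10 higher and 8 lower genes of 22.

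The responses to the 2 perturbations differed for most members on the deposited scale, and for 17 once both were centred on the cytoplasmic ribosomal protein genes. A z test of the difference, adjusted by Benjamini-Hochberg over 10588 genes, called 60 of 72 members, all of them more positive under ph interference, against 22.4% of all genes. The median difference was 0.46 over the members and -0.05 over all genes. With both fold changes centred on the RpL and RpS medians, an alternative added after the data were seen, 17 members were called, 16 of them more positive under ph interference (9.14% of all genes) and 1 more negative (43.3% of all genes), with a median difference of 0.15. This test holds only if no library served in both comparisons, which the labels do not settle. The largest differences were those of mRpL18 (0.97 ± 0.16, adjusted p = 1.91e-08), mRpL44 (0.90 ± 0.15) and mRpL35 (0.89 ± 0.14) by this z test on the authors' deposited tables. The smallest adjusted p was that of mRpS31 (difference 0.78 ± 0.09, adjusted p = 6.36e-18, z test), followed by mRpL45 (0.68 ± 0.09) and mRpL28 (0.70 ± 0.10). Differences of mRpL12 (0.58), mRpL49 (0.77), mRpL46 (0.65) and mRpS22 (0.45) also passed. Of these 10 members mRpS22 was not called after the RpL and RpS centring. The difference of mRpL37 was -0.00 ± 0.10 (adjusted p = 0.978, z test), and after that centring it was -0.32 and called. The perturbations also differ in method, replicate number and control, so a difference between the proteins and one between the experiments cannot be told apart.

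On the deposited scale, other genes of mitochondrial gene expression also rose under ph interference in most of the lists examined. On that scale 31.1% of all genes were called higher, and the RpL and RpS genes had a median of 0.39. The small subunit genes tko and bonsai, mitoribosomal proteins outside the naming rule and known in flies for bang-sensitive paralysis and for body growth, rose by 0.71 ± 0.07 and 0.71 ± 0.05 in the authors' deposited table. All 11 genes of mitochondrial transcription, RNA and DNA factors were called higher, with a median of 0.77. The smallest adjusted p-values were those of the genome packaging factor TFAM (0.91 ± 0.04), the RNA-binding factor bsf (0.67 ± 0.03) and Lrpprc2 (0.71 ± 0.04) in the authors' deposited table. The replication genes tam, the mitochondrial DNA polymerase (1.30 ± 0.08), and mtDNA-helicase (1.01 ± 0.08), named after their values were seen, had the largest values in the authors' deposited table.

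Translation factors and aminoacyl-tRNA synthetases were more varied than the ribosomal proteins. Of 9 mitochondrial translation factors, 6 were called higher and 0 lower, with a median of 0.29, below the 0.39 of the RpL and RpS genes. The elongation factor genes mEFTu1 (0.46 ± 0.03), mEFTu2 (0.72 ± 0.06) and mEFG1 (0.80 ± 0.08) rose in the authors' deposited table, while that of mEFTs was 0.00 ± 0.04 and was not called. Of 16 mitochondrial aminoacyl-tRNA synthetase genes and their relative Slimp, 13 were called higher and 1 lower, with a median of 0.41. They load tRNAs with amino acids, and the smallest adjusted p-values were those of AlaRS-m (0.86 ± 0.06), AspRS-m (0.38 ± 0.03) and MetRS-m (0.78 ± 0.07) in the authors' deposited table. In the authors' deposited table ValRS-m had a value of -0.41 ± 0.10 and was called lower.

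Mitochondrial chaperones and growth genes rose in the same table. Of 8 mitochondrial stress and proteolysis genes, 7 were called higher, led by the chaperonin gene Hsp60A (0.73 ± 0.03), the Hsp70-type chaperone gene Hsc70-5 (0.54 ± 0.03) and the protease gene CG6512 (0.79 ± 0.05) in the authors' deposited table. Of 10 growth regulators of ribosome synthesis, 9 were called higher and 1 lower, with a median of 0.92. The nucleolar methyltransferase gene Fib (1.07 ± 0.04), the RNA polymerase I subunit gene RpI1 (1.01 ± 0.04) and the nucleolar protein gene Nop56 (0.88 ± 0.05) had the smallest adjusted p in the authors' deposited table. The growth regulator gene Myc, named after its value was seen, rose by 1.10 ± 0.07 in the authors' deposited table. The value of ewg, the fly relative of nuclear respiratory factor, was -0.39 ± 0.08 in the authors' deposited table, and it was called lower. No mitochondrially encoded gene stood in either table, so the partners of these proteins on the mitochondrial genome were not analysed here.

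In the Pc mutant the same lists held few calls. The translation factor mEFTu2 rose by 0.22 ± 0.07 (DESeq2 adjusted p = 0.0414) while AlaRS-m, at -0.38 ± 0.08 (adjusted p = 5.31e-05), was called lower in the authors' deposited table. None of the other genes of these 6 lists was called, and of the 88 genes with RpL or RpS symbols 1 was higher and 0 lower.

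**Figure D4:**
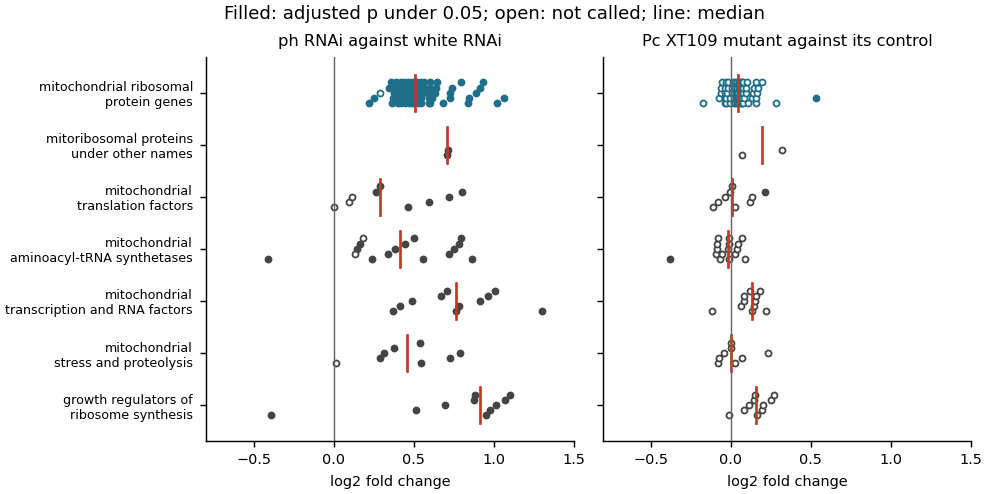
Log2 fold change of each gene of the 72 members and of 6 related lists, under ph interference (left) and in the Pc mutant (right); filled points passed the adjusted p threshold of 0.05 and the red line is the median. Medians under ph interference run from 0.29 for the translation factors to 0.92 for the growth regulators, with 0.51 for the members (0.12 when centred on the RpL and RpS genes). All values are drawn on the deposited scale, where the RpL and RpS genes had a median of 0.39.

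Polycomb peaks were found near a part of the members, at shares close to those of all protein-coding genes. A merged PSC peak overlapped the gene or the 1000 bp around it at 24 of 72 members (33.3%), against 30.3% of the 13922 protein-coding genes. A merged Su(z)12 peak was found at 6 members (8.33%), against 10.4%. The same 6 members had both peaks (8.33%), against 9.65%, so that 18 had PSC alone, none had Su(z)12 alone and 48 had neither. Peaks of PSC were near 13 large subunit and 11 small subunit genes, and those of Su(z)12 near 4 and 2.

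These shares depend on which genes they are read against. Members are short, with a median length of 885 bp against 2163 bp for protein-coding genes. Another protein-coding gene lies within 1000 bp of 71 of 72 members (98.6%), against 87.6% of protein-coding genes. Among protein-coding genes of at most 1500 bp that were tested in the ph table, 21.8% had a PSC and 5.86% a Su(z)12 peak. Among the 92 located genes with RpL or RpS symbols the shares were 72.8% and 39.1%. Peaks found in both PSC replicates gave 12 members (16.7%, against 16.8% of protein-coding genes). The list of each PSC replicate alone gave 14 and 20 members, for which the share of protein-coding genes is not given. No difference between these shares was tested.

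Most peaks of both proteins had their summit outside the members. Most PSC summits were nearer to an end of another gene, while the Su(z)12 peaks were few and no difference between the proteins was tested. The place of summits was not counted for other protein-coding genes, so these counts are not read as particular to the members. Of the 33 PSC peaks near members, 3 had their summit inside the member, 30 had another protein-coding gene within 1000 bp, and for 23 the end of that other gene was nearer to the summit. The fold enrichment given by the authors' peak caller had a median of 2.03 at these peaks and 1.97 over all 5999 merged PSC peaks. Of the 7 Su(z)12 peaks, 2 had their summit inside the member, 5 had another protein-coding gene within 1000 bp and for 1 the end of that gene was nearer. Their median fold was 2.31, against 1.98 over all 2205 merged peaks. Of the 33 PSC peaks 14 were found in both replicate lists, 14 in 1 and 5 in neither, and of the 7 Su(z)12 peaks the numbers were 3, 2 and 2.

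The strongest peaks near a member were those beside mRpL13 (2L, 18858028 to 18859248), a large subunit gene with a bacterial counterpart. The PSC peak (2L, 18859129 to 18859997) had a fold of 4.36 and ranked 13 of 5999, and the Su(z)12 peak (2L, 18859170 to 18859976) had a fold of 3.96 and ranked 16 of 2205. Both were in both replicate lists, with summits 92 and 87 bp beyond the higher end of mRpL13. That end is shared with CG10602, which overlaps mRpL13, and tup, a homeodomain transcription factor gene, also lies within 1000 bp of these peaks. Under ph interference mRpL13 rose by 0.54 ± 0.12, tup rose by 1.51 ± 0.09 and CG10602 fell by 0.10 ± 0.03 in the authors' deposited table. In the Pc mutant none of the 3 genes was called.

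The other strong peaks belonged to mRpS5 (3L, 24537236 to 24543534), the single member with no other protein-coding gene within 1000 bp. In bacteria its counterpart takes part in the accuracy of decoding. Its 3 PSC peaks had folds of 3.63, 2.70 and 1.88, and its 2 Su(z)12 peaks had folds of 2.77 and 1.90. The strongest PSC and Su(z)12 summits lay 1090 and 1067 bp outside its lower end, and both peaks were in both replicate lists. The expression of mRpS5 rose by 0.42 ± 0.07 under ph interference and was -0.02 ± 0.23 in the Pc mutant, not called, in the authors' deposited tables.

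The remaining members with both peaks had weaker ones. At mRpL22 (X, 16783933 to 16785092) the PSC and Su(z)12 folds were 2.52 and 2.54, with summits 15 and 11 bp outside the gene, and the integrin gene if lies on that side. Under ph interference if fell by 1.80 ± 0.12 while mRpL22 rose by 0.25 ± 0.06 in the authors' deposited table. At mRpL27 (2L, 4458595 to 4459638), near the peptidyl transferase centre in bacteria, the highest folds were 2.21 and 2.31, with the summits inside the gene and beside the cytoplasmic ribosomal protein gene RpL27A. The fold changes of mRpL27 and RpL27A under ph interference were 0.64 ± 0.06 and 0.39 ± 0.03 in the authors' deposited table.

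At mRpL55 (3R, 19094394 to 19094905) the highest folds were 2.31 and 1.69, between the neighbours cdi and ATPsynD, and at mRpS21 (3R, 13381276 to 13381809) they were 2.33 and 1.69. The value of mRpL55 under ph interference was 0.52 ± 0.12 in the authors' deposited table. After mRpL13, mRpS5 and mRpL22, the next highest PSC fold of a member, 2.37, was that of mRpL1 (3R, 8301440 to 8302770), which had no Su(z)12 peak and rose by 0.45 ± 0.06 in the authors' deposited table.

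Members with and without a peak had close medians under ph interference, and the difference was not tested. The 24 members with a PSC peak had a median of 0.49 and a range of 0.25 to 1.02, and the 48 without one had a median of 0.52 and a range of 0.22 to 1.06. The 6 members with both peaks had a median of 0.47. The member with the largest rise, mRpL44, had no peak of either protein within 1000 bp. Of the other members above 0.8, mRpL18, mRpS6 and mRpS31 had a PSC peak, in each case with its strongest summit nearer to the end of another gene, and mRpL35, mRpL36 and mRpL49 had none.

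**Figure D5:**
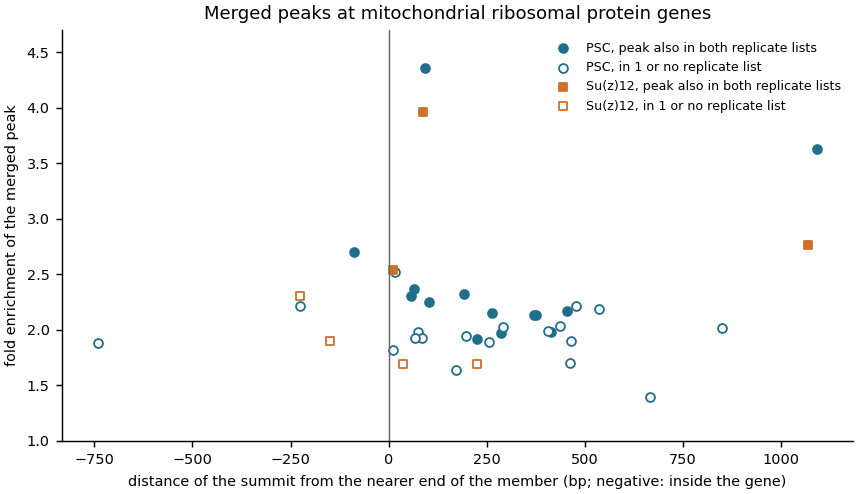
Fold enrichment of each merged peak near a member against the distance in bp of its summit from the nearer end of that member (negative values lie inside the gene); filled symbols are peaks also found in both replicate lists. The peaks of PSC at mRpL13 and mRpS5 (4.36 and 3.63) and of Su(z)12 at mRpL13 (3.96) stand above the rest, and all other peaks have folds under 3.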

How the data were processed

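Per the submitters' processing notes, the build was dm6 and the tools included Bowtie2, MACS2 2.1.1.20160309, STAR, HTSeq and DESeq2 1.22.1, with no settings. The deposited mean normalized count is a mean signal over a comparison's libraries, per the file headers, so library depth is unknown. The log2 fold changes, their standard errors, p-values and adjusted p-values are the authors', per the file headers. In the deposited peak lists, the fold (a ratio over background), the score and the −log10 p and q values per peak are the authors', as MACS2 writes them, and the merged lists hold both replicates.

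The members and gene lists were chosen with earlier results of these data known. Symbols were matched to the Release 6 annotation (RefSeq), which was used without strand or sequence, so the planned promoter motif search was not run and the window at gene starts became a summit at most 250 bp from an end of the gene. Peaks were assigned by at least 1 bp of overlap with the gene or the 1000 bp around it. Fold changes were compared by a z test (standard errors combined in quadrature, Benjamini-Hochberg over 10588 genes), tested on simulated data. Scripts used Python 3.11.15, pandas 2.3.3 and SciPy 1.17.1. Named by rule were members called in a table (at most 12 by adjusted p where over 25 were called), the 3 highest and 3 lowest in each table with a mean count of at least 50, members with both peaks, the 5 highest peak folds, the 10 clearest differences and up to 3 called genes per list and direction. The 32 other samples of the series were not analysed here.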

Additional observations from a re-analysis of the deposited data

Results flagged for a closer look

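The response of 60 of the 72 mitochondrial ribosomal protein genes differed between ph interference and the Pc mutant by the z test of the difference (Benjamini-Hochberg adjusted p under 0.05 over 10588 genes), and all 60 were more positive under ph interference. Of all genes 22.4% passed in that direction. The difference was positive in 71 of 72 members, with a median of 0.46. Centred on the RpL and RpS medians, the difference was positive in 66 members and called in 17 (16 more positive and 1, mRpL37, more negative under ph interference), with a median of 0.15 against -0.365 over all genes.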

How the results depend on the processing

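The call of mRpL37 alone in the Pc mutant was the same under all 6 alternatives. Under ph interference 71 or 72 members were called under 4 alternatives: a threshold of 0.1, centring on the median of all genes, no filter on low values and a mean count of at least 100 (71 of 71, without mRpS24). Centring on the RpL and RpS median left 30 calls (28 higher, 2 lower). Then 9 members turned negative: mRpL50 (-0.026), mRpL22 (-0.14), mRpL24 (-0.012), mRpS7 (-0.03), mRpL20 (-0.17), mRpL33 (-0.017), mRpL34 (-0.0068), mRpS23 (-0.044) and mRpS21 (-0.097), the last not called on the deposited scale either. A further 35 were positive and not called. The 30 members that overlap no other gene, an alternative added after the data were seen, gave 30 calls under ph interference, 14 members with PSC and 4 with Su(z)12. Those peak counts are given without the share of other genes. Differences between the perturbations were called for 65 members after centring on the medians of all genes and 67 with an assumed correlation of 0.5. They were called for 17 after centring on the RpL and RpS medians, an alternative added after the data were seen. For the counts of 65 and 67 the share of all genes is not given, so they are not read as a stronger result for the members.

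Members with a PSC peak numbered 14 without replicate 2 and 20 without replicate 1, and 12 with peaks found in both replicates. The number was 13 with a fold of at least 2, 13 in the gene body alone and 13 with a summit within 250 bp of either end. For Su(z)12 it was 5 and 3 without replicates 2 and 1, 3 with peaks in both replicates, 4 with a fold of at least 2, 5 in the gene body and 6 at gene ends. Except for PSC peaks in both replicates, the share of all protein-coding genes under each setting is not given. These counts are therefore not read as more or fewer peaks than at other genes. No paired analysis was possible because the fold change tables hold no sample values. The limits are the unnamed control of the Pc mutant, the absence of strand and of library depth, and peaks that neighbouring genes share. Another limit is that muscle and fat body markers were lower in the Pc mutant.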
